A study of Chlamydomonas reinhardtii with 6 samples.

Results

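Photosystem I is the chlorophyll-protein complex of the thylakoid membrane that takes electrons from plastocyanin or cytochrome c6 on the lumenal side and passes them to ferredoxin on the stromal side. Its reaction-centre proteins PsaA and PsaB are encoded in the chloroplast genome, whereas many of the smaller core subunits are nuclear-encoded and are imported into the chloroplast. The transcripts of 9 such nuclear genes, PSAD, PSAE, PSAF, PSAG, PSAH, PSAK, PSAL, PSAN and PSAO, are described here in the unicellular green alga Chlamydomonas reinhardtii. They were set by gene identifier and not by a cut on any measured value, although earlier results of these data were known. They are 9 of the 17736 gene models in the deposited table. All 9 were present and all 9 passed the filter used for testing, a mean of at least 1 FPKM (a count scaled by gene model length and library total) over the 6 libraries, which 10878 genes passed. Neither the table nor the gene reference pairs identifiers with symbols, so the symbols are those under which the identifiers were chosen and could not be checked against the files.

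The subunits fall into groups by their place in the complex. PSAD and PSAE form the stromal ridge on which ferredoxin docks. PSAF provides the lumenal site at which plastocyanin and cytochrome c6 dock, and PSAN, studied mainly in Arabidopsis, is a lumenal protein that assists plastocyanin there. PSAG and PSAK are related membrane proteins at the edge of the core, next to the antenna. PSAH, PSAL and PSAO lie together on the side at which, in plants, mobile light-harvesting complex II docks during state transitions.

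The 6 RNA libraries came from strain CC125, 3 biological replicates from wild type (WT) cells and 3 from CMD1 knockout cells (cmd1 KO). CMD1 is a homologue of the TET dioxygenases, the enzymes that oxidise 5-methylcytosine in animal DNA, and the question was how expression changes without it. Both genotypes grew in acetate medium at 25 °C in dim light (20 µmol photons per square metre and second) and were then moved to high salt medium in light of 300 µE. No library from dim light was analysed here, so no value below is a response to light, and the sources used here do not give how the mutant was made or how many clones were used. Gene counts summed to between 38875025 and 47869886 per library, and CMD1 itself was not analysed here, so the genotype labels were not checked by its level. RNA came from whole cultures, in which a change in every cell and a change in some of the cells cannot be told apart.

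Replicate 3 of each genotype stood apart from replicates 1 and 2 of that genotype, and results are given with and without it. Across genes, the log2 CPM (counts scaled to library size) of replicates 1 and 2 correlated at 0.988 in WT and 0.981 in cmd1 KO, those of replicates 1 and 3 at 0.791 and 0.698, and the WT and cmd1 KO libraries of replicate 3 at 0.955. The WT and cmd1 KO libraries correlated at only 0.809 in replicate 1 and 0.769 in replicate 2. Replicates 1 and 2 of cmd1 KO thus stood apart from WT as well. The scale between libraries matters too. Trimmed mean of M-values (TMM) scaling, which sets the typical gene level between libraries, and scaling on the total count alone differed so much that the median tested gene had log2 ratios of cmd1 KO to WT of -0.06, -0.09 and -0.01 in pairs 1, 2 and 3 with TMM and of -1.40, -1.48 and -0.32 with library sizes alone. The TMM factors were 0.511 and 0.485 in cmd1 KO replicates 1 and 2 and 1.30 to 1.72 in the other libraries. Ratios between subunits within a library need neither scale and are therefore given first.

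The 9 genes lie on 7 chromosomes (positions on the v5.5 assembly). PSAD (Cre05.g238332.v5.5) is on chromosome 5 from 2978242 to 2979235, and the gene model length implied by its FPKM, 993 bases, covers 99.9% of that span. PSAE (Cre10.g420350.v5.5) is on chromosome 10 from 332041 to 332993, PSAF (Cre09.g412100.v5.5) on chromosome 9 from 7163422 to 7165425 and PSAN (Cre02.g082500.v5.5) on chromosome 2 from 1241637 to 1244122. PSAK (Cre17.g724300.v5.5) is on chromosome 17 from 3419254 to 3421201. PSAG (Cre12.g560950.v5.5, 6881158 to 6883069) and PSAL (Cre12.g486300.v5.5, 1620271 to 1622341) share chromosome 12 at a distance of 5.26 Mb, and PSAH (Cre07.g330250.v5.5, 2613753 to 2615562) and PSAO (Cre07.g334550.v5.5, 3298723 to 3300553) share chromosome 7 at 0.685 Mb, so no member adjoins another. All 9 are short, with gene model lengths of 714 bases (PSAE) to 1465 bases (PSAF) against a median of 2356.5 bases over the tested genes. In the other 8 the gene model length was 49.4% to 74.9% of the genomic span, and 0 other gene models of the reference overlapped any of the 9 spans.

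In WT all 9 subunits were among the most abundant transcripts, and PSAO led while PSAK and PSAL trailed. Over all 6 libraries the members held between 5091 and 95647 counts each and ranked between 82nd and 341st of the 17736 genes by FPKM. PSAO, at 1814 ± 238 FPKM (SD, n = 3), was first in each of the 3 WT libraries. PSAG, PSAE, PSAF, PSAH, PSAD and PSAN followed with means from 1460 to 995 FPKM, and the ranges of every neighbouring pair in this order overlapped between the WT replicates. The one step without overlap was from PSAN, at 995 ± 350 FPKM, down to PSAK, at 494 ± 43.4 FPKM. PSAK and PSAL, at 443 ± 96.4 FPKM, overlapped again, PSAK being the higher in 2 of 3 WT libraries. The highest member was 4.08 to 4.74 times the lowest in the WT libraries.

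**Figure D1:**
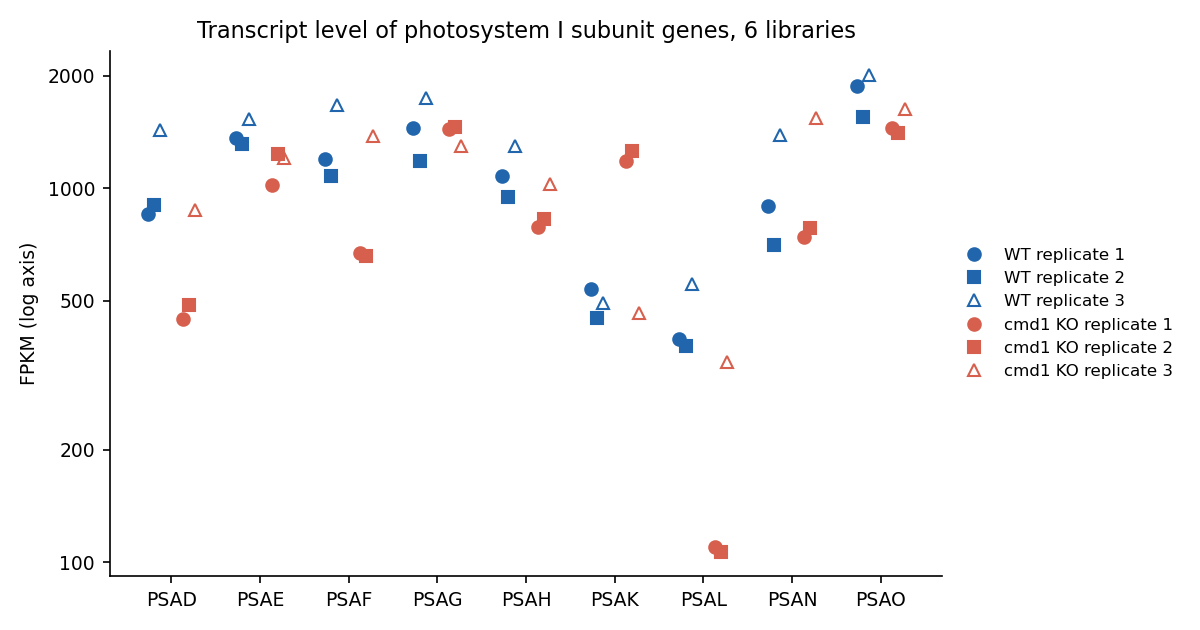
FPKM of each photosystem I subunit gene (log axis) in each library, WT in blue and cmd1 KO in red, with filled circles and squares for replicates 1 and 2 and open triangles for replicate 3. PSAK in cmd1 KO replicates 1 and 2 lies at 1181 and 1258 FPKM, above the other 4 libraries, and PSAL in the same libraries at 110 and 106 FPKM, below them.

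The make-up of the set differed between genotypes in replicates 1 and 2. In percentage points of the summed FPKM of the 9 genes, the mean difference of those pairs (cmd1 KO minus WT) was 9.76 for PSAK and 3.56 for PSAG, and -4.25 for PSAF, -3.91 for PSAD and -2.93 for PSAL. PSAK gained most, and in relation to its own share PSAL lost most. As a share of that sum, PSAK made up 5.57%, 5.30% and 4.08% in WT replicates 1, 2 and 3 and 15.1%, 15.3% and 4.74% in the cmd1 KO replicates. Replicates 1 and 2 of cmd1 KO lay far above the other 4 libraries, and cmd1 KO replicate 3 lay within the WT range. PSAL made up 4.10%, 4.45% and 4.57% in WT and 1.40%, 1.29% and 3.52% in cmd1 KO, each cmd1 KO library lying below each WT library. The group means were 4.98% ± 0.794 for WT and 11.7% ± 6.04 for cmd1 KO in PSAK (SD, n = 3, exact permutation test, two-sided, p = 0.3), and 4.37% ± 0.241 and 2.07% ± 1.25 in PSAL (p = 0.1 by the same exact test). With 3 libraries against 3, no exact test can give a p under 0.1, so neither difference could pass 0.05 over all 6 libraries. Summed over the members, 12.9 and 15.1 percentage points changed hands between the genotypes in pairs 1 and 2 and 5.47 in pair 3, against 3.67 to 6.92 between WT libraries. Between cmd1 KO libraries the same measure was 2.69 for replicates 1 and 2. It was 17.8 and 18.0 between each of them and replicate 3, more than between the genotypes in any pair.

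Among the other members, only PSAH also had genotypes that did not overlap in share. Its shares were 11.2%, 11.1% and 10.7% in WT and 10.0%, 10.1% and 10.5% in cmd1 KO (exact permutation test, two-sided, p = 0.1). The shares of a library have a fixed sum, so a larger PSAK share by itself lowers the others. Relative to PSAO alone, PSAH overlapped between the genotypes. Relative to the summed FPKM of the 9 genes, 22.6% of the 10878 tested genes were lower without overlap and 2.56% higher. The 2 of 9 members lower is thus near the share of all genes. The members make up that sum and the other genes do not, so this comparison is a rough one. PSAD made up a smaller share in cmd1 KO in all 3 pairs, with a mean of 10.4% ± 1.48 in WT and 6.86% ± 1.81 in cmd1 KO (exact permutation test, two-sided, p = 0.2). PSAN made up a larger share in all 3 pairs, but the difference was 4.34 percentage points in replicate 3 and 0.70 in replicates 1 and 2. PSAO and PSAE kept close shares, at 18.1% ± 1.42 against 17.4% ± 0.945 for PSAO and 14.1% ± 1.41 against 13.4% ± 1.38 for PSAE. The 9 shares were tested one by one and their unadjusted exact p-values ran from 0.1 to 0.7.

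**Figure D2:**
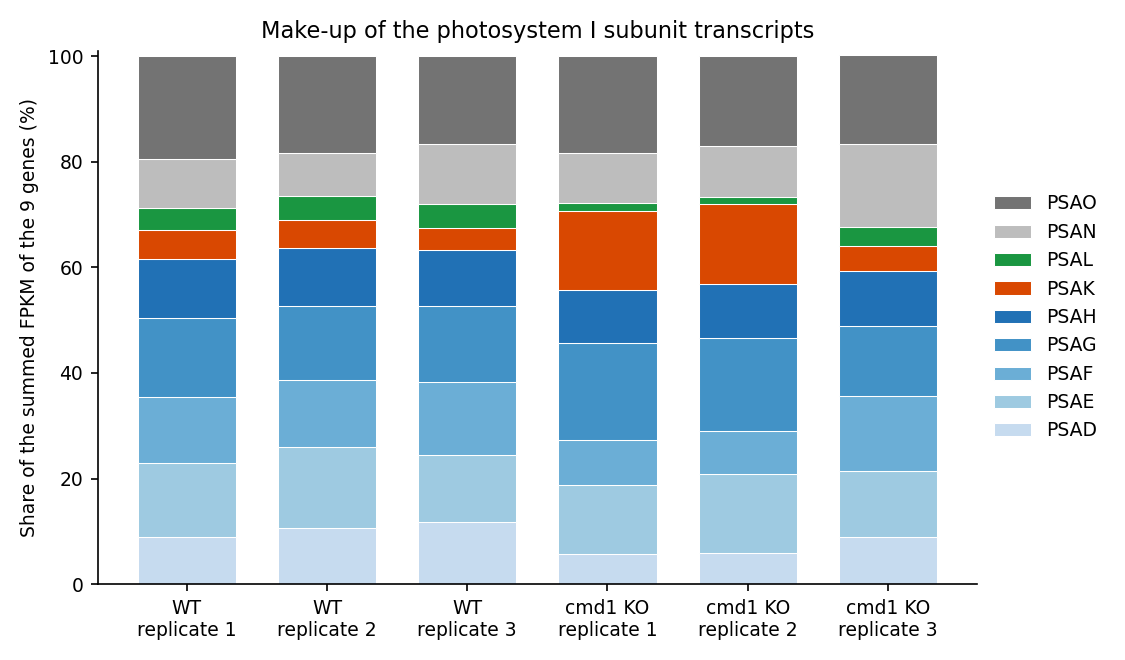
Share of each gene in the summed FPKM of the 9 photosystem I genes (%), one stacked bar per library. The PSAK segment (orange) is 15.1% and 15.3% in cmd1 KO replicates 1 and 2 against 4.08% to 5.57% in the other libraries, and the PSAL segment (green) shrinks to 1.40% and 1.29% in the same libraries.

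The ratio of PSAK to PSAL gives the contrast in a single number, chosen after the values were seen. It was 1.36, 1.19 and 0.892 in WT replicates 1, 2 and 3 and 10.8, 11.8 and 1.35 in the cmd1 KO replicates. The cmd1 KO ratio was thus 8.88 times that of WT in replicates 1 and 2 and 1.51 times in replicate 3, where it lay within the WT range. Over the 36 ratios between members, this one spanned the widest range over the 6 libraries, its highest value being 13.3 times its lowest. The steadiest was PSAH to PSAO, at 0.575, 0.610 and 0.645 in WT and 0.542, 0.589 and 0.628 in cmd1 KO, a range of 1.19-fold. PSAE to PSAO and PSAE to PSAH ranged 1.25-fold and 1.27-fold.

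For a test of these shifts across all genes, the counts were fitted with the summed counts of the 9 genes as the library size, an option chosen after the data were seen. Within replicates 1 and 2, PSAK rose by a log2 difference of 1.51 (SE 0.12, edgeR quasi-likelihood test, adjusted p = 5.33e-09) and PSAL fell by 1.64 (SE 0.13, adjusted p = 3.14e-09) relative to the set. PSAG also rose, by 0.34, and PSAD and PSAF fell by 0.71 and 0.57 in that fit. Of all tested genes, 8.51% passed as higher and 71.2% as lower on this scale. The members' own sum sets the scale, so the members are held around it while other genes are not. Here and in the later fits on this scale, the shares of all genes are therefore not a like comparison. PSAE, PSAH, PSAN and PSAO had log2 differences from -0.12 to 0.14 that did not pass. Over all 6 libraries edgeR called 0 members on this scale (adjusted p = 0.33 for PSAK and for PSAL), beside 0% of all genes. At an unadjusted p under 0.05 it held PSAK higher, beside 0.745% of all genes, and PSAL lower, beside 14.0%.

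The stromal-ridge genes differed in level and in how they varied. PSAD stood at 854, 901 and 1430 FPKM in WT replicates 1, 2 and 3 and at 447, 487 and 873 FPKM in the cmd1 KO replicates. On this scale it was lower in cmd1 KO in each pair, but cmd1 KO replicate 3 overlapped WT replicates 1 and 2. With TMM scaling PSAD was at 1.33 and 1.43 times WT in pairs 1 and 2 and at 0.754 times WT in pair 3. PSAE stood at 1360, 1313 and 1529 FPKM in WT and at 1017, 1231 and 1206 FPKM in cmd1 KO, all below the lowest WT value on the FPKM scale, although with TMM scaling the genotypes overlapped. The ratio of PSAD to PSAE was 0.628, 0.686 and 0.935 in WT and 0.439, 0.396 and 0.724 in cmd1 KO, so the partners of the ridge did not keep a fixed transcript ratio even among WT libraries.

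For the lumenal-side genes, the ratio of PSAF to PSAN was lower in every cmd1 KO library than in every WT library. PSAF stood at 1198, 1078 and 1671 FPKM in WT and at 671, 660 and 1381 FPKM in cmd1 KO. On this scale, cmd1 KO replicates 1 and 2 lay below every WT library and replicate 3 within the WT range. With TMM scaling every cmd1 KO library, at 1928, 1998 and 1483 CPM, instead lay above every WT library, at 1357, 1233 and 1453 CPM. PSAN stood at 897, 704 and 1384 FPKM in WT and at 738, 785 and 1539 FPKM in cmd1 KO, the libraries of replicate 3 being the highest in both genotypes. The ratio of PSAF to PSAN, 1.34, 1.53 and 1.21 in WT, was 0.908, 0.841 and 0.898 in cmd1 KO and did not overlap between the genotypes (exact permutation test, two-sided, p = 0.1). In all, 8 of the 36 ratios between members did not overlap: PSAF to PSAN, PSAD to PSAN, and PSAL with each of PSAE, PSAF, PSAG, PSAH, PSAN and PSAO. Most of these share PSAL, so they are not separate results. For any single ratio such a separation has an exact permutation p of 0.1. The share among ratios of other genes was not computed, so the count alone does not set the members apart.

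On the FPKM scale the related membrane subunits PSAG and PSAK differed in their pattern. PSAG stood at 1452, 1186 and 1741 FPKM in WT and at 1442, 1455 and 1296 FPKM in cmd1 KO, and every cmd1 KO library lay inside the WT range. PSAK stood at 537, 451 and 494 FPKM in WT and at 1181, 1258 and 462 FPKM in cmd1 KO. On the scale of library sizes PSAK was at 2.20 and 2.79 times WT in pairs 1 and 2 and at 0.936 times WT in pair 3. By rank it moved from 160th in WT replicates 1 and 2 to 95th and 94th in the cmd1 KO libraries of the same number, and was 186th in cmd1 KO replicate 3. With TMM scaling both genes were higher in pairs 1 and 2, PSAG at 2.52 and 3.25 times WT and PSAK at 5.58 and 7.39 times. In pair 3 PSAG was at 0.919 and PSAK at 1.16 times WT.

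The genes on the light-harvesting complex II side split, with PSAL apart from PSAH and PSAO. PSAH stood at 1078, 946 and 1299 FPKM in WT and at 787, 826 and 1025 FPKM in cmd1 KO. PSAO stood at 1877, 1550 and 2013 FPKM in WT and at 1452, 1403 and 1632 FPKM in cmd1 KO. In both genes cmd1 KO replicate 3 overlapped WT. With TMM scaling PSAH was at 1.85, 2.31 and 0.974 times WT in pairs 1, 2 and 3, and PSAO at 1.96, 2.4 and 1.0 times. PSAL stood at 396, 378 and 554 FPKM in WT and at 110, 106 and 343 FPKM in cmd1 KO, every cmd1 KO library lying below every WT library with either scale. On library sizes PSAL was at 0.277 and 0.281 times WT in pairs 1 and 2 and at 0.620 times WT in pair 3. With TMM scaling it stood at 368, 355 and 395 CPM in WT and 259, 264 and 302 CPM in cmd1 KO, or 0.702, 0.743 and 0.765 times WT.

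Over all 6 libraries no member passed the test for a genotype difference. edgeR's quasi-likelihood test with TMM scaling gave 0 of 9 members at a Benjamini-Hochberg adjusted p of 0.05, and 0% of all 10878 genes. PSAK had the widest difference, from 340 ± 58.7 CPM in WT to 1687 ± 1186 CPM in cmd1 KO (TMM-scaled, SD, n = 3), a log2 difference of 2.31 (SE 0.74, adjusted p = 0.263). PSAN stood at 984 ± 194 CPM in WT and 2000 ± 358 CPM in cmd1 KO, a log2 difference of 1.02 (SE 0.35, adjusted p = 0.263). PSAL stood at 373 ± 20.4 and 275 ± 23.9 CPM, a log2 difference of -0.44 (SE 0.28, adjusted p = 0.41). At an unadjusted p under 0.05 there were 2 members, PSAK and PSAN, both higher, beside 9.14% of all genes higher and 8.81% lower. DESeq2 called these 2 members higher, PSAK at 2.42 (DESeq2 adjusted p = 0.0286) and PSAN at 1.12 (DESeq2 adjusted p = 0.0302), beside 3.79% of all genes higher and 2.54% lower. Neither edgeR on library sizes alone nor limma on log2(FPKM + 1) called a member (0 in both), beside 0% of all genes in each. In limma PSAL alone was at an unadjusted p under 0.05, beside 24.7% of all genes lower and 0.322% higher. Without cmd1 KO replicate 3 edgeR called 6 members higher, PSAE, PSAG, PSAH, PSAK, PSAN and PSAO, beside 18.1% of all genes, and 0 lower, beside 20.7%.

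Consistency over same-numbered pairs depended on the scale. With TMM, 4 members (PSAF, PSAK, PSAN and PSAO) were higher in cmd1 KO in all 3 pairs and PSAL was lower in all 3, beside 25.6% and 28.7% of all genes. PSAO was among them by a margin of 0.00066 in pair 3. With library sizes alone 0 members were higher in all 3 pairs and 6 were lower, PSAD, PSAE, PSAF, PSAH, PSAL and PSAO, beside 4.12% and 67.5% of all genes. Genotypes did not overlap with TMM in PSAF and PSAN (higher, beside 9.43% of all genes) and in PSAL (lower, beside 13.6%), and with library sizes alone in PSAE and PSAL (lower, beside 29.7%) and in no member as higher, beside 1.08%. PSAL was the only member lower without overlap with both scales.

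Within replicates 1 and 2 all 9 members passed on the TMM scale, PSAK with the largest rise and PSAL with the only fall. edgeR called 8 members higher and 1 lower, beside 34.3% of all genes higher and 37.8% lower. With library sizes alone the same libraries gave 1 member higher (PSAK) and 5 lower (PSAD, PSAF, PSAH, PSAL and PSAO), beside 6.36% and 78.8% of all genes, so PSAD, PSAF, PSAH and PSAO passed in opposite directions on the 2 scales. PSAK and PSAL kept their direction on both. PSAK had a log2 difference of 2.68 (SE 0.14, adjusted p = 7.11e-18) with TMM and of 1.30 (SE 0.13, adjusted p = 8.33e-09) with library sizes. PSAL had -0.47 (SE 0.14, adjusted p = 0.00232) and -1.84 (SE 0.13, adjusted p = 1.15e-10). With TMM the other differences ran from 0.46 in PSAD (SE 0.13, adjusted p = 0.00207) to 1.51 in PSAG (SE 0.13, adjusted p = 1.61e-12). The median over the members was 1.11, beside -0.07 over all tested genes. Among all tested genes PSAK lay above 98.1% and PSAL above 39.0% in this log2 difference. These tests rest on 2 libraries per genotype. With genes under a mean of 5 FPKM left out, PSAD, at -0.0028, and PSAF, at 0.14 (edgeR adjusted p = 0.313), no longer passed, which left 6 members higher and 1 lower, beside 36.7% and 39.7% of the genes tested. Without cmd1 KO replicate 2 PSAD no longer passed (edgeR adjusted p = 0.0748), which left 7 higher and 1 lower, beside 32.6% and 36.3%. On log2(FPKM + 1) limma called 1 member higher and 4 lower, beside 6.76% and 79.5% of all genes, and on log2(FPKM + 0.1) 1 higher and 3 lower, beside 5.73% and 78.0%.

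**Figure D3:**
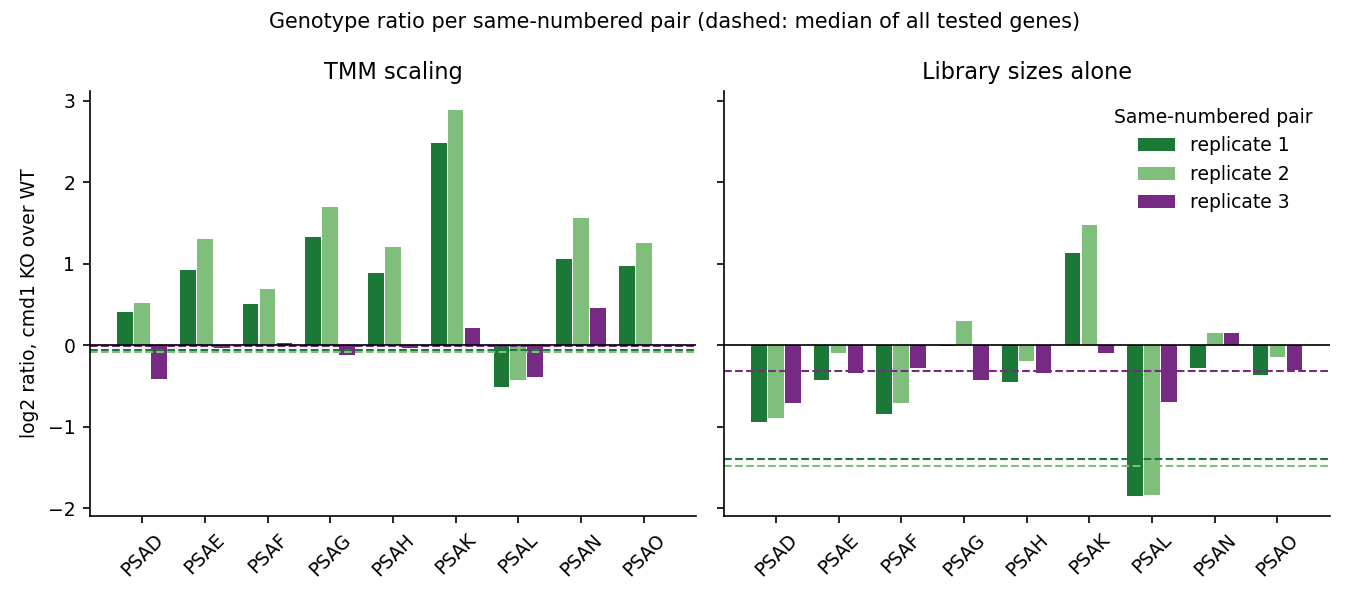
Log2 ratio of cmd1 KO to WT for each gene in same-numbered pairs 1, 2 and 3, with TMM scaling (left) and library sizes alone (right), where dashed lines mark the median of all tested genes in each pair. PSAK is positive in pairs 1 and 2 and PSAL negative in all pairs on both scales, while PSAD, PSAE, PSAF, PSAH and PSAO change sign with the scale in pairs 1 and 2.

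In replicate 3 the members were close to the median of all genes. With library sizes alone their median log2 ratio was -0.34, beside -0.32 over all tested genes. With TMM the 9 log2 ratios ran from -0.41 in PSAD to 0.46 in PSAN, with a median of -0.04 beside -0.01 over all tested genes, and 4 of 9 were above 0. PSAK was at 0.21 and PSAL at -0.39. The genotype effect itself was tested for a difference between replicate 3 and replicates 1 and 2 by an interaction term, whose spread comes from replicates 1 and 2. In edgeR with TMM 8 members passed, all with a smaller or more negative effect in replicate 3, beside 23.4% of all genes in that direction and 27.3% in the other. Without cmd1 KO replicate 2 PSAF no longer passed (edgeR adjusted p = 0.0739). For PSAK the difference of effects was -2.47 (SE 0.24, adjusted p = 6.29e-09). PSAL was the exception at 0.08 (SE 0.24, adjusted p = 0.79). With library sizes alone 4 members passed: PSAG and PSAK with a more negative effect in replicate 3 (beside 5.85% of all genes), and PSAF and PSAL with a more positive one (beside 58.7%). PSAK was at -1.40 (SE 0.22, adjusted p = 3.8e-05) and PSAL at 1.15 (SE 0.22, adjusted p = 0.000256) on that scale. With the summed counts of the 9 genes as the library size PSAK was at -1.32 (adjusted p = 9.53e-05) as the 1 member lower, beside 4.7% of all genes, and PSAL at 1.24 (adjusted p = 0.000204) and PSAF passed as higher, beside 57.8%, so the effect on PSAK differed between replicate 3 and the other replicates on all 3 scales, and that on PSAL on the 2 scales other than TMM.

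**Figure D4:**
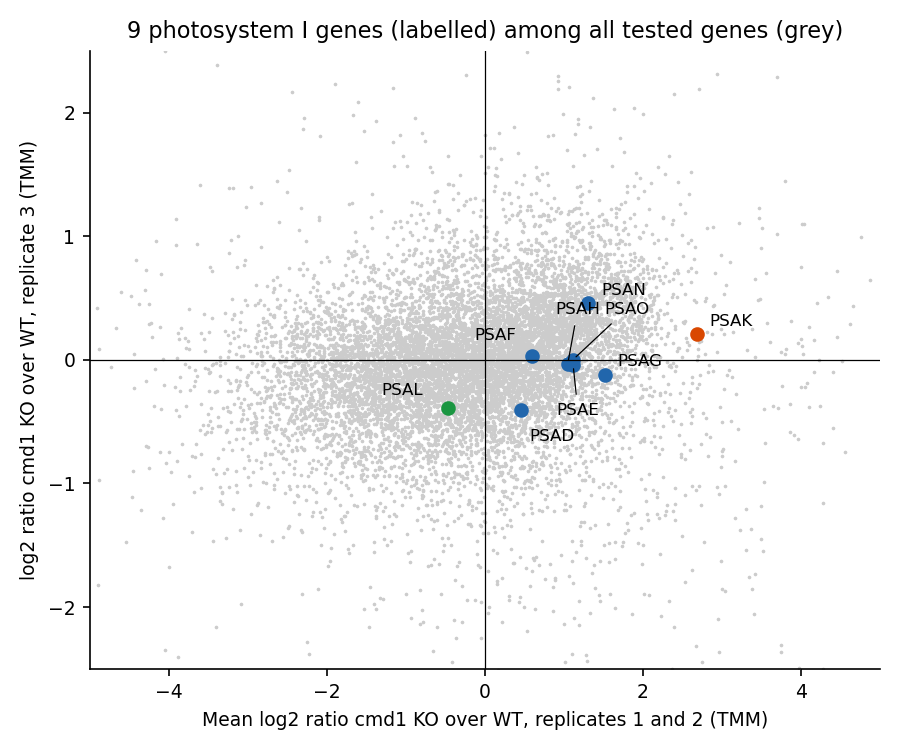
Log2 ratio of cmd1 KO to WT (TMM) averaged over replicates 1 and 2 (x axis) and in replicate 3 (y axis), with all tested genes in grey, PSAK in orange, PSAL in green and the other 7 members in blue. 180 tested genes lie outside the plotted range. PSAK sits far to the right at 2.68 and PSAL to the left of 0, while along the y axis all 9 lie between -0.41 and 0.46.

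Gene length and abundance moved with the genotype ratio over all genes, and all 9 members fell in the shortest of 5 equal length classes (241 to 1536 bases) and in the highest of 5 equal classes of WT abundance. The median log2 ratio (TMM) of the shortest class was 0.87, 1.09 and 0.18 over the successive pairs, and that of the most abundant class 0.54, 0.74 and 0.23. The median member, at 0.92, 1.26 and -0.04, was close to the length class in pairs 1 and 2 and below both classes in pair 3. PSAH lay 0.02 and 0.12 above the length class in pairs 1 and 2, whereas PSAK lay 1.61 and 1.79 above it and PSAL lay below it, at -1.38 and -1.52. Against the abundance class PSAK was at 1.94 and 2.15, and PSAL at -1.05 and -1.17. PSAD was below both classes in all 3 pairs, by -0.46, -0.58 and -0.59 against the length class. The part of length and abundance in the members' ratios was not tested.

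The 9 genes together held 1.06%, 0.928% and 1.35% of all gene counts in WT replicates 1, 2 and 3 and 0.846%, 0.878% and 1.11% in the cmd1 KO replicates. The share was lower in cmd1 KO in all 3 pairs, by 0.21, 0.05 and 0.25 percentage points. The means, 1.11% ± 0.218 and 0.944% ± 0.142 (SD, n = 3), differed by less than the SD between WT replicates, and the genotypes overlapped. The difference of the means (cmd1 KO minus WT), -0.17 percentage points, was -0.05 without WT replicate 3 and -0.26 without WT replicate 2.

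The authors' deposited table lists the comparison on a scale where most genes are lower in cmd1 KO. In the authors' deposited table PSAL had a log2 fold change of -1.46 (unadjusted p = 0.00166 from the authors' model), PSAD of -0.84 (p = 0.00114 from the same model) and PSAF of -0.61 (p = 0.00806). PSAK, at 0.84 (p = 0.034), was the 1 member higher in the authors' deposited table with p below 0.05 before adjustment. At this threshold 51.4% of all genes were lower and 1.54% higher in the authors' deposited table. Benjamini-Hochberg adjustment of these values left no member of the authors' deposited table under 0.05, the smallest value being 0.0541.

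In the shape of their profile over the 6 libraries the members ranged from PSAH, nearest to the members' mean profile, to PSAK, farthest from it. The measure was the root mean square difference between a gene's log2 CPM (TMM), centred on its own mean, and the mean centred profile of the 9 members, over the 197 tested genes at least as abundant as PSAL. The members enter that mean, so their own closeness is partly built in. PSAH was closest, at 0.030, and PSAO and PSAE took places 4 and 7, at 0.109 and 0.147. PSAG, PSAF, PSAN and PSAD took places 25, 28, 37 and 39, at 0.242 to 0.327, behind genes outside the set. PSAK and PSAL were 172nd and 150th, at 0.854 and 0.703. The closest genes outside the set were Cre16.g687900 (chromosome 16, 4587811 to 4590628), at 0.072, and Cre16.g650100 (chromosome 16, 1133646 to 1135236), at 0.096. Cre16.g687900 stood at 1360, 1120 and 1780 FPKM in WT and at 952, 1070 and 1240 FPKM in cmd1 KO. The reference gives no name for either. The identifier Cre16.g687900 was on the list of 13 antenna and electron carrier genes described below, whose names could not be checked.

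The genes next to PSAK and PSAL did not follow them in a common way. Of the gene models beside PSAK, one held 8 counts over all libraries and the other had a mean log2 ratio (TMM) of -0.13 in pairs 1 and 2, where PSAK was at 2.68. The gene models beside PSAL had -2.39 and 2.06 in pairs 1 and 2, on either side of PSAL at -0.47.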

How the data were processed

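FastQC 0.11.5, Cufflinks 2.0.0 and TopHat2 are named per the submitters' processing notes, with no order. Libraries came from a stranded total RNA kit, per the labels' protocols. The sources used here do not give the genome build, counting tool or strand setting. The deposited counts are whole numbers of reads per gene without normalisation, per the file headers. FPKM, named so per the file headers, equalled count over gene length and column total, with whole-number lengths within 0.01 base for 100% of genes. The deposited log2 fold change and log2 CPM, the F statistic (a score) and the unadjusted p-value are the authors' own comparison, per the file headers, with no model stated. Of 17736 identifiers, 17733 matched the RefSeq v5.5 table by locus tag, all 9 members among them, and it gives 0 symbols other than locus tags. A list of 13 antenna and electron carrier genes fixed for comparison could therefore not be named and was not used. There were 0 unused columns of per-sample values.

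The main test was edgeR 4.0.16 (glmQLFit, glmQLFTest, two-sided) on counts with TMM factors and genotype as the only term, over the 10878 genes whose mean reached 1 FPKM, with Benjamini-Hochberg adjustment. It was run on all 6 libraries, on replicates 1 and 2, and with an interaction of genotype with replicate 3. DESeq2 1.42.0, which gave no adjusted p for 268 genes over all 6 libraries, and limma 3.58.1 were alternatives, in R 4.3.3, beside other scalings, filters, the replicate block and leaving out each library. SE is the log2 difference over the root of F. Pair ratios are differences in log2 CPM (prior count 1). Exact permutation tests used scipy 1.17.1 in Python 3.11.15, with pandas 2.3.3, numpy 2.4.6 and matplotlib 3.10.9. The fits were also run on simulated data with changes in a small set of genes. Those data held no general scale shift and no general difference of replicate 3, so they do not bear on either. Members, lists and tests were chosen with earlier results of these data known. Named genes were all 9 members and the 2 other genes of nearest profile.

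The labels list WT and mutant together by number, and on that basis alone the numbers were taken to pair the samples. The deviations of WT and cmd1 KO libraries from the mean of their group correlated at 0.530, 0.427 and 0.547 for numbers 1, 2 and 3. With 1 and 2 crossed the values were 0.479 and 0.491. These correlations match the replicate 3 libraries with each other but cannot tell which of replicates 1 and 2 belong together. Replicates are called biological in the labels' protocols. Reads shared with near-identical genes could not be separated.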

Additional observations from a re-analysis of the deposited data

Results flagged for a closer look

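In 8 genes the genotype effect (log2, cmd1 KO over WT, TMM) differed between replicate 3 and replicates 1 and 2 by the edgeR interaction test at an adjusted p of 0.05. All 8 had a smaller or more negative effect in replicate 3, beside 23.4% of all genes in that direction and 27.3% in the other. The effect in replicate 3 minus that in replicates 1 and 2 was -2.47 in PSAK, -1.63 in PSAG, -1.17 in PSAE, -1.11 in PSAO, -1.09 in PSAH, -0.87 in PSAD, -0.85 in PSAN and -0.57 in PSAF. With library sizes alone only PSAK (-1.40) and PSAG (-0.56) of these passed in the same direction, beside 5.85% of all genes. PSAF (0.50) passed in the opposite one, beside 58.7%. Replicate 3 has 1 library of each genotype, so the spread in this test comes from replicates 1 and 2, and what sets replicate 3 apart was not tested.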

How the results depend on the processing

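The scale between libraries decided the direction of most members. Over all 6 libraries, log2 differences with library sizes alone were -0.82 for PSAD, -0.28 for PSAE, -0.54 for PSAF, -0.063 for PSAG, -0.33 for PSAH and -0.28 for PSAO (median over the members -0.28). limma on log2(FPKM + 1) gave -0.84, -0.28 (-0.285), -0.61, -0.047, -0.33 and -0.27 in the same order (median -0.285), and with a pseudocount of 0.1 -0.84, -0.285, -0.61, -0.047, -0.33 and -0.27 (median -0.285). The summed counts of the members as library size, chosen after seeing the data, gave -0.60 for PSAD, -0.052 for PSAE, -0.34 for PSAF, -0.0996 for PSAH and -0.042 for PSAO (median -0.052). A minimum mean of 5 FPKM gave -0.20 for PSAD, and DESeq2 called 2 members higher, beside 3.79% of all genes higher and 2.54% lower. After subtracting the median of the length class the median was 0.017.

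Within replicates 1 and 2, library sizes alone gave 1 member higher and 5 lower (6.36% and 78.8% of all genes). The log2 differences were -0.91 for PSAD, -0.25 for PSAE, -0.77 for PSAF, -0.33 for PSAH, -0.072 for PSAN and -0.26 for PSAO (median -0.26). limma gave 1 higher and 4 lower (6.76% and 79.5% of all genes), with -0.91, -0.26, -0.77, -0.32, -0.062 and -0.26 in that order (median -0.26), and with the pseudocount of 0.1 gave 1 higher and 3 lower (5.73% and 78.0%), with -0.91, -0.26, -0.77, -0.32, -0.062 and -0.26 (median -0.26). The members' summed counts gave 2 higher and 3 lower (8.51% and 71.2% of all genes). This fit had -0.71 for PSAD, -0.052 for PSAE, -0.57 for PSAF, -0.12 for PSAH and -0.054 for PSAO (median -0.054). The minimum mean of 5 FPKM gave 6 higher and 1 lower (36.7% and 39.7% of the genes tested) and a median of 0.65. PSAD, at -0.0028, and PSAF, at 0.14, did not pass there. Subtracting the length class gave a median of 0.14, with -0.52 for PSAD and -0.38 for PSAF, and subtracting the abundance class 0.48, with -0.18 and -0.040.

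For the effect in replicate 3 against replicates 1 and 2, library sizes alone gave 2 members higher and 2 lower (58.7% and 5.85% of all genes). The median was -0.014, with 0.20 for PSAD, 0.50 for PSAF and 0.22 for PSAN. The members' summed counts gave 2 higher and 1 lower (57.8% and 4.7% of all genes). The median was 0.070, with 0.29 for PSAD, 0.58 for PSAF, 0.070 for PSAH, 0.30 for PSAN and 0.041 for PSAO. The causes of these shifts were not tested.

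Leaving out each library in turn gave 0 to 6 members higher over all 6 libraries and a median of 0.57 to 1.16. The 6 arose without cmd1 KO replicate 3, where 18.1% of all genes were higher and 20.7% lower. The difference in share of the members' FPKM (percentage points, cmd1 KO minus WT) ranged from -1.39 to 0.079 in PSAE, the highest without WT replicate 2, from -0.18 to 2.998 in PSAN, the lowest without cmd1 KO replicate 3, and from -1.39 to 0.019 in PSAO, the highest without WT replicate 1. It ranged from 4.92 to 10.2 in PSAK and from -3.03 to -1.92 in PSAL. Members called higher within replicates 1 and 2 were 7 to 8, PSAD being lost without cmd1 KO replicate 2. The difference in summed share of all gene counts ranged from -0.26 to -0.05 percentage points.

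With the replicate block, the paired fit gave 0 members higher and 0 lower over all 6 libraries (median 0.74, PSAK adjusted p = 0.18 in edgeR). Within replicates 1 and 2 it gave 8 higher and 1 lower (median 1.11), so the block changed no call of a member. Without the block 34.3% of all genes were higher and 37.8% lower within replicates 1 and 2, and the shares with the block are not given here. Each member held at least 5091 counts in each library.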
